A study of Homo sapiens with 6 samples.

Results

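The genes described here encode deubiquitinases, the proteases that remove ubiquitin from other proteins, and were chosen by name. A gene belonged to the set when its symbol was USP with a number (outside the Y chromosome), UCHL1, UCHL3 or UCHL5, or began with OTUD or OTUB. The deposited counts held 63 such genes among 34234, and 59 of them had enough reads to be tested, among 17935 tested genes in all. The name rule also took in OTUD6B-AS1, an antisense noncoding gene, and OTUD4P1, a pseudogene, neither of which is a protease gene.

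RNA was sequenced after poly-A selection from HCCLM3 cells, a human hepatocellular carcinoma line known for its high metastatic potential. All 6 libraries came from this line after lentiviral delivery of a short hairpin RNA, a construct that lowers the mRNA it matches. The shcontrol group (3 libraries) had received the control hairpin and the shATXN7L3 group (3 libraries) a hairpin against ATXN7L3. The labels name 1 treatment per group, shcontrol or shATXN7L3. An effect of the hairpin on other mRNAs and an effect of less ATXN7L3 therefore cannot be told apart. Whether replicates came from separate cultures is not stated in them, so each p-value rests on library-to-library spread that could be technical.

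Ubiquitin is joined to proteins as a single unit or as a chain, and marks them for the proteasome, for sorting to the lysosome, or for a change of activity. USP enzymes form the largest deubiquitinase family, and the UCH and OTU enzymes are smaller cysteine protease families. USP22 is the catalytic subunit of the deubiquitinase module of SAGA, a transcriptional coactivator, where it removes ubiquitin from histone H2B. It works only when bound to the adaptors ATXN7L3 and ENY2, and USP27X and USP51, its closest relatives, use the same adaptors outside SAGA. The comparison of the groups therefore asks how the mRNAs of these 3 proteases, and of the other deubiquitinases, stood when the adaptor mRNA was lowered.

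Total counts ran from 22376867 to 23915783 per library. Members took 0.302% to 0.327% of the counts, and mitochondrially encoded transcripts 21.7% to 23.0%. The keratin KRT8 stood at 1652 CPM and the hepatocyte marker ALB at 65.2 CPM in shcontrol (CPM, counts scaled to a common library size with TMM factors), while APOA1 was at 0.418 CPM and AFP at 2.91 CPM. All 8 tested genes of the 9-gene hepatocyte list were lower in shATXN7L3, and the summed CPM of the list was 2119 to 2261 in shcontrol and 1709 to 1851 in shATXN7L3. Of the 2 epithelial markers, EPCAM rose from 0.374 to 1.01 CPM and CDH1 did not pass. The summed CPM of 4 leukocyte markers was 1.06 to 1.56 in shcontrol and 0.415 to 0.879 in shATXN7L3. LYZ, the 1 tested gene of these, fell from 0.92 to 0.17 CPM. PTPRC averaged 0.149 and 0.196 CPM, CD14 0.255 and 0.281 CPM, and CD3E 0.030 and 0 CPM. The sum of 4 fibroblast and stellate markers was 0.444 to 0.879 in shcontrol and 0.344 to 0.581 in shATXN7L3. Of the 3 endothelial markers, PECAM1 had 43.7 and 28.0 CPM in the 2 groups (lower in shATXN7L3), whereas VWF and CDH5 averaged 0.297 and 0.0446 CPM in shcontrol. The part of these shifts in the results below was not tested, and in bulk RNA fewer cells of a type and less RNA per cell cannot be told apart.

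Of the 59 tested members, 7 rose and 7 fell in shATXN7L3 and 45 did not pass (edgeR quasi-likelihood test, Benjamini-Hochberg adjusted p under 0.05 over all tested genes). These 14 are 23.7% of the members tested, beside 24.2% called among all tested genes. In each direction the members' share was 11.9%, beside 12.2% higher and 12.0% lower among all tested genes. The share of called deubiquitinases was thus near that of all tested genes. Among protein-coding genes alone, 24.1% of the tested members were called, beside 28.8% of all those tested. The median log2 fold change was -0.01 over the members and 0.01 over all tested genes. The sizes were small, with a median absolute log2 fold change of 0.09 over the members beside 0.14 over all tested genes. No called member differed by as much as 1.5-fold, whereas 949 of the 4332 called genes did. CPM values of the groups did not overlap for 20 members (8 above and 12 below shcontrol), or 33.9% of those tested, beside 38.3% of all tested genes. With scaling by library size alone, 2955 genes were higher and 1604 lower in place of 2182 and 2150, and the members split into 8 and 6.

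The number of calls depended on the test and on single libraries. At an unadjusted p under 0.05, edgeR gave 8 higher and 9 lower. DESeq2 called 4 members higher and 5 lower. Leaving out shcontrol replicate 2 left 4 higher, and leaving out shATXN7L3 replicate 2 left 4 higher and 4 lower. Calls over all tested genes dropped in these settings too. They were 1405 higher and 1603 lower with DESeq2, 1698 and 1735 without shcontrol replicate 2, and 1574 and 1624 without shATXN7L3 replicate 2. UCHL1, USP13, USP45, USP5, USP7, USP46, USP47 and USP9X are the 8 members whose call held under all 14 alternative settings and omissions.

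**Figure D1:**
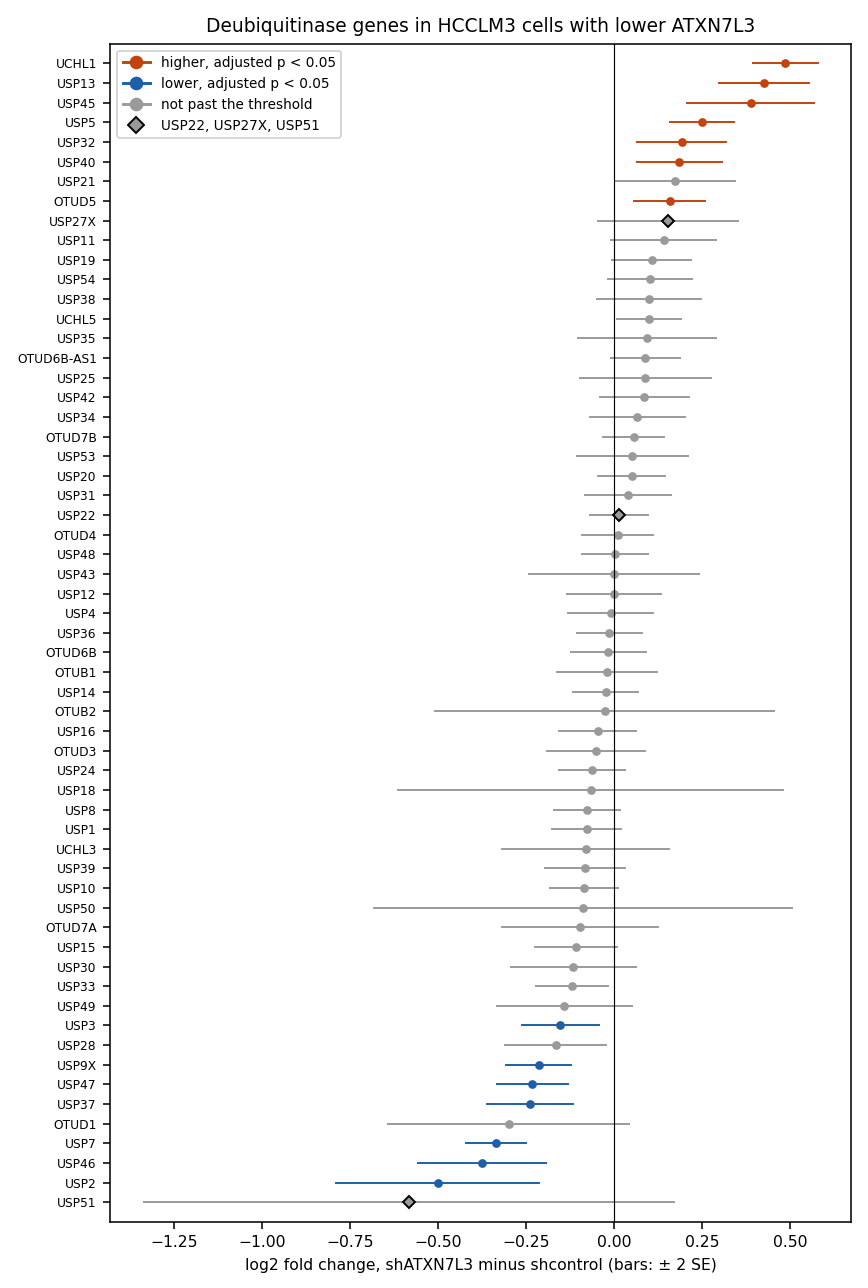
Log2 fold change (shATXN7L3 minus shcontrol, x axis) of the 59 tested members, ordered by value; bars span ± 2 SE, colours mark calls at an adjusted p under 0.05 and diamonds mark USP22, USP27X and USP51. The 14 called genes lie between -0.50 and 0.49, and the 3 diamonds have bars that reach across 0.

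ATXN7L3, the targeted adaptor, gave 36.4, 37.5 and 37.5 CPM in the shcontrol libraries, and 20.6, 20.5 and 19.5 CPM in those of shATXN7L3. The groups did not overlap, and the mRNA was at 0.545-fold of control (edgeR adjusted p = 6.69e-10; exact permutation p = 0.1, two-sided, the smallest that 3 against 3 libraries allow). ENY2, the second adaptor, had 119, 117 and 114 CPM in shcontrol and 128, 126 and 124 CPM in shATXN7L3. All its shATXN7L3 libraries lay above shcontrol, but it did not pass the test (log2 fold change 0.11, ± 2 SE interval 0.02 to 0.20; edgeR adjusted p = 0.0724). Scaling by library size alone gave a pass (edgeR adjusted p = 0.0111), as did leaving out shcontrol replicate 1 (0.0367).

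None of the 3 proteases that use these adaptors passed the test. EdgeR called 0 of the 3, beside 24.2% of all tested genes, and 3 genes are too few to tell these shares apart. DESeq2 and limma voom also called 0 of the 3, and 0 had an unadjusted edgeR p under 0.05. USP22 (chromosome 17, 20999593 to 21043760, minus strand, GRCh38) gave 217, 218 and 219 CPM in the shcontrol libraries, and 217, 223 and 220 CPM in those of shATXN7L3. The groups overlapped, and the interval of its log2 fold change ran from -0.07 to 0.09 (value 0.01; edgeR adjusted p = 0.864; exact permutation p = 0.4). USP22 overlaps exons of 2 genes on the opposite strand, CCDC144NL-AS1 and RP11-746M1.1, neither of which passed.

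USP27X (chromosome X, 49879948 to 49882565, plus strand) gave 6.27, 6.17 and 6.72 CPM in shcontrol and 6.62, 7.39 and 7.28 CPM in shATXN7L3. The lowest shATXN7L3 library lay inside the shcontrol range. Its log2 fold change was 0.15 ± 0.10 (SE; edgeR adjusted p = 0.299; exact permutation p = 0.2). USP51 (chromosome X, 55484616 to 55489202, minus strand) was near the limit of detection, with 11, 10 and 13 reads in shcontrol and 10, 10 and 4 reads in shATXN7L3. All of its shATXN7L3 libraries were below shcontrol in CPM, but without shATXN7L3 replicate 3, the library of 4 reads, its log2 fold change was -0.26. With all libraries, its log2 fold change of -0.58 had an interval of -1.34 to 0.17 (edgeR adjusted p = 0.291; exact permutation p = 0.1, the smallest possible), so a change of USP51 was not detectable at this depth.

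Per kilobase of exon, USP22 was by far the most abundant of the 3. It had 32.0 ± 0.211 CPM per kb in shcontrol (SD, n = 3), beside 2.44 ± 0.113 for USP27X and 0.115 ± 0.0131 for USP51. USP22 was thus 13.1-fold above USP27X and 278-fold above USP51. Its share of the summed level of the 3 was 92.6% ± 0.304 in shcontrol and 92.1% ± 0.295 in shATXN7L3. The other 56 tested members include all 14 calls, or 25% called, beside 24.2% of all tested genes. Over these 56, the median log2 fold change was -0.02, beside 0.01 for the 3 SAGA-adaptor proteases. This pair of medians was compared without a test, because members are not replicates, and without shcontrol replicate 2 the median of the other members was 0.02.

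**Figure D2:**
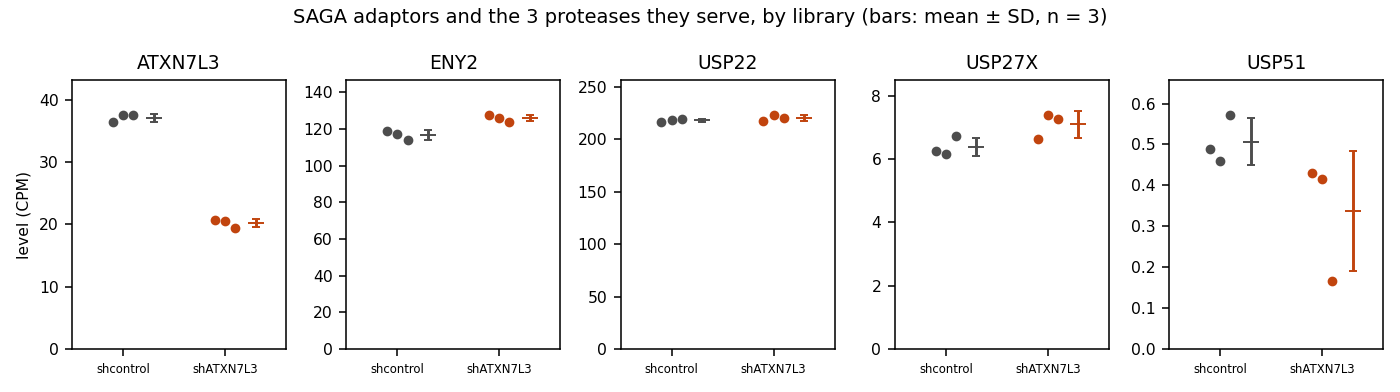
Level in CPM (y axis from 0) of ATXN7L3, ENY2, USP22, USP27X and USP51 in each library, with mean ± SD (n = 3) beside the points. ATXN7L3 falls from 37.1 to 20.2 CPM on average while the USP22 libraries of both groups sit between 217 and 223 CPM.

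Of 9 tested proteases reported to act on ubiquitinated histone H2A or H2B outside the SAGA trio, 3 fell and 0 rose (median log2 fold change -0.05). These 3 are 33.3% of the list, beside 24.2% called and 12.0% lower among all tested genes. USP7, a protease of MDM2, p53 and chromatin regulators (chromosome 16, 8892094 to 8964514, minus strand), had 267, 269 and 277 CPM in shcontrol and 211, 222 and 211 CPM in shATXN7L3. The groups were well apart, and USP7 fell by 0.34 on the log2 scale (± 0.043 SE; edgeR adjusted p = 7.71e-06). USP46, which is activated by the WD-repeat protein WDR48, had 11.8, 10.2 and 12.2 CPM in shcontrol and 9.42, 8.63 and 8.37 CPM in shATXN7L3. It fell by 0.37 on the log2 scale (± 0.091 SE; edgeR adjusted p = 0.00464), with no overlap of the groups.

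USP3, an H2A protease, had 59.02, 56.3 and 61.0 CPM in shcontrol and 54.2, 55.3 and 49.1 CPM in shATXN7L3. Its fall of 0.15 on the log2 scale lay close to the threshold (edgeR adjusted p = 0.0470). The call ended with DESeq2 (0.0905), with scaling by library size alone (0.181), with the replicate number as a block (0.0532), on leaving out shcontrol replicate 3 (0.0996), and on leaving out any shATXN7L3 library (0.0839, 0.0511 and 0.281 for replicates 1, 2 and 3). USP3 overlaps exons of USP3-AS1 on the opposite strand, which was at 32.0 ± 1.38 and 28.2 ± 2.89 CPM (log2 fold change -0.18; edgeR adjusted p = 0.0546). USP12, USP16, USP21, USP36, USP42 and USP49 did not pass, with log2 fold changes of -0.00, -0.05, 0.17, -0.01, 0.08 and -0.14, and USP44 had too few reads.

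WDR48 itself, the activator of USP1, USP12 and USP46, rose from 20.4, 21.9 and 21.8 CPM to 25.3, 25.6 and 24.4 CPM (log2 fold change 0.23 ± 0.060 SE; edgeR adjusted p = 0.00713). Of the 3 proteases it activates, USP46 fell, or 33.3% called beside 24.2% of all tested genes. USP1, a protease of the DNA clamp PCNA and of FANCD2, had a log2 fold change of -0.08 and USP12 of -0.00. The second WD-repeat partners WDR20 (0.11) and DMWD (0.18) did not pass (edgeR adjusted p = 0.35 and 0.0541).

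Among 10 members linked to p53, MDM2 and DNA damage, all tested, 2 rose and 3 fell (median log2 fold change -0.08). The share called was 50% of this short list, beside 24.2% of all tested genes, and the calls went both ways. USP2, which stabilises MDM2 and cyclin D1, was lowly expressed and had 4.13, 3.68 and 3.34 CPM in shcontrol and 2.75, 2.53 and 2.60 CPM in shATXN7L3. It showed the largest fall among called members, by 0.50 on the log2 scale (± 0.14 SE; edgeR adjusted p = 0.0148). The call was lost with DESeq2 (0.0698), on leaving out shcontrol replicate 1 (0.0653), and on leaving out shATXN7L3 replicate 2 (0.0556). USP47, which stabilises DNA polymerase beta, had 89.5, 96.1 and 98.2 CPM in shcontrol and 84.7, 77.4 and 79.5 CPM in shATXN7L3. It fell by 0.23 on the log2 scale (± 0.050 SE; edgeR adjusted p = 0.00184), and the groups did not overlap.

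OTUD5, an OTU protease with roles in innate immune and p53 signalling, had 42.9, 40.6 and 41.4 CPM in shcontrol and 45.4, 46.7 and 47.4 CPM in shATXN7L3. Its rise of 0.16 on the log2 scale (edgeR adjusted p = 0.0270) lost its call with DESeq2 (0.102), with no filter on low counts (0.0517), on leaving out shcontrol replicate 2 (0.103), and on leaving out any shATXN7L3 library (replicate 1, 0.0517; replicate 2, 0.0859; replicate 3, 0.113). The fifth called gene of this list besides USP7, USP2, USP47 and OTUD5 was USP5, described with the ubiquitin chain proteases. USP1, USP10, USP11, USP28 and OTUB1 did not pass (log2 fold changes -0.08, -0.09, 0.14, -0.17 and -0.02), although USP28, a protease of MYC and the checkpoint protein 53BP1, passed without shcontrol replicate 1.

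Of 6 members reported to act on TGF-beta receptors or SMAD proteins, 1 fell and 0 rose (median log2 fold change -0.02), or 16.7% called beside 24.2% of all tested genes. USP9X, which removes ubiquitin from SMAD4 and from the survival protein MCL1 (chromosome X, 41085635 to 41236579, plus strand), had 261, 280 and 292 CPM in shcontrol and 239, 236 and 244 CPM in shATXN7L3. It fell by 0.21 on the log2 scale (± 0.046 SE; edgeR adjusted p = 0.00176) with no overlap. Its Y-linked copy USP9Y lies outside the name rule, and how reads matching both copies were counted is not given in the sources used here. USP4 and USP15, paired receptor proteases, had log2 fold changes of -0.01 and -0.11, USP11 and OTUB1 of 0.14 and -0.02, and UCHL5 of 0.10. USP15 passed without shcontrol replicate 1 and UCHL5 with scaling by library size alone.

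Of 5 tested proteases of free ubiquitin chains and of the proteasome, 2 rose and 0 fell (median log2 fold change 0.10). These 2 are 40% of a list of 5, beside 24.2% called and 12.2% higher among all tested genes. USP5, which takes apart unanchored ubiquitin chains (chromosome 12, 6852128 to 6866632, plus strand), had 80.8, 79.1 and 77.9 CPM in shcontrol and 92.2, 92.6 and 97.7 CPM in shATXN7L3. All shATXN7L3 libraries were above shcontrol (log2 fold change 0.25 ± 0.046 SE; edgeR adjusted p = 4.17e-04). USP13, the closest relative of USP5 and a regulator of autophagy (chromosome 3, 179652755 to 179789401, plus strand), rose from 17.2, 19.5 and 18.2 CPM to 24.8, 25.0 and 23.9 CPM. The change was 1.34-fold (log2 0.43 ± 0.064 SE; edgeR adjusted p = 5.28e-05). USP14 and UCHL5, the proteases bound to the proteasome, did not pass, with log2 fold changes of -0.02 and 0.10.

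UCHL1, a ubiquitin hydrolase best known from neurons (chromosome 4, 41256413 to 41268455, plus strand), was the member with the largest rise. It had 176, 166 and 160 CPM in shcontrol and 235, 240 and 228 CPM in shATXN7L3. The groups were far apart relative to their spread, with a 1.40-fold difference (log2 0.49 ± 0.046 SE; edgeR adjusted p = 1.69e-07). Its antisense neighbour UCHL1-AS1, which overlaps its exons on the opposite strand, averaged 0.105 CPM in shcontrol and 0.0554 CPM under the ATXN7L3 hairpin. Of the 3 UCH members, UCHL3 (-0.08) and UCHL5 (0.10) did not pass, which left 33.3% called beside 24.2% of all tested genes.

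Of 7 members that act at endosomes, the endoplasmic reticulum, mitochondria or in autophagy, 1 rose and 0 fell (median log2 fold change 0.05), or 14.3% called beside 24.2% of all tested genes. USP32, a membrane-bound protease, had 43.6, 47.0 and 53.6 CPM in shcontrol and 52.9, 55.3 and 56.3 CPM in shATXN7L3, and shcontrol replicate 3 lay inside the shATXN7L3 range. USP32 was the 1 called member whose groups overlapped (log2 fold change 0.19; edgeR adjusted p = 0.0313). Its call was lost with DESeq2 (0.0694), on leaving out shcontrol replicate 1 (0.104) or replicate 2 (0.110), and on leaving out replicate 2 (0.103) or replicate 3 (0.127) of shATXN7L3. Its tested pseudogenes USP32P1 (-0.70) and USP32P3 (-0.45), whose reads may not be fully separable from it, averaged 0.688 and 2.01 CPM in shcontrol and did not pass. USP8, USP19, USP20, USP25, USP30 and USP33 had log2 fold changes between -0.12 and 0.11, and of these USP33 passed without shcontrol replicate 1.

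The remaining 3 called members belonged to none of the role lists. USP45, a protease of the DNA repair endonuclease subunit ERCC1, had 7.33, 8.79 and 8.13 CPM in shcontrol and 10.97, 10.04 and 10.7 CPM in shATXN7L3. It rose 1.31-fold (log2 0.39 ± 0.091 SE; edgeR adjusted p = 0.00352), with no overlap. USP37, which opposes the destruction of cyclin A, had 32.1, 32.8 and 36.4 CPM in shcontrol and 30.02, 27.4 and 28.5 CPM in shATXN7L3. It fell by 0.24 on the log2 scale (± 0.061 SE; edgeR adjusted p = 0.00693), a call that ended without shATXN7L3 replicate 2 (0.0520).

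USP40 had 22.0, 22.4 and 23.0 CPM in shcontrol and 26.7, 25.6 and 24.4 CPM in shATXN7L3. The groups did not overlap (log2 fold change 0.19, edgeR adjusted p = 0.0296), but the call was lost with DESeq2 (0.129), on leaving out shcontrol replicate 1 (0.0567) or replicate 2 (0.0768), and on leaving out replicate 1 (0.144) or replicate 2 (0.0814) of shATXN7L3. USP37 overlaps exons of VIL1 and USP45 those of TSTD3 on the opposite strand, and neither neighbour passed.

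**Figure D3:**
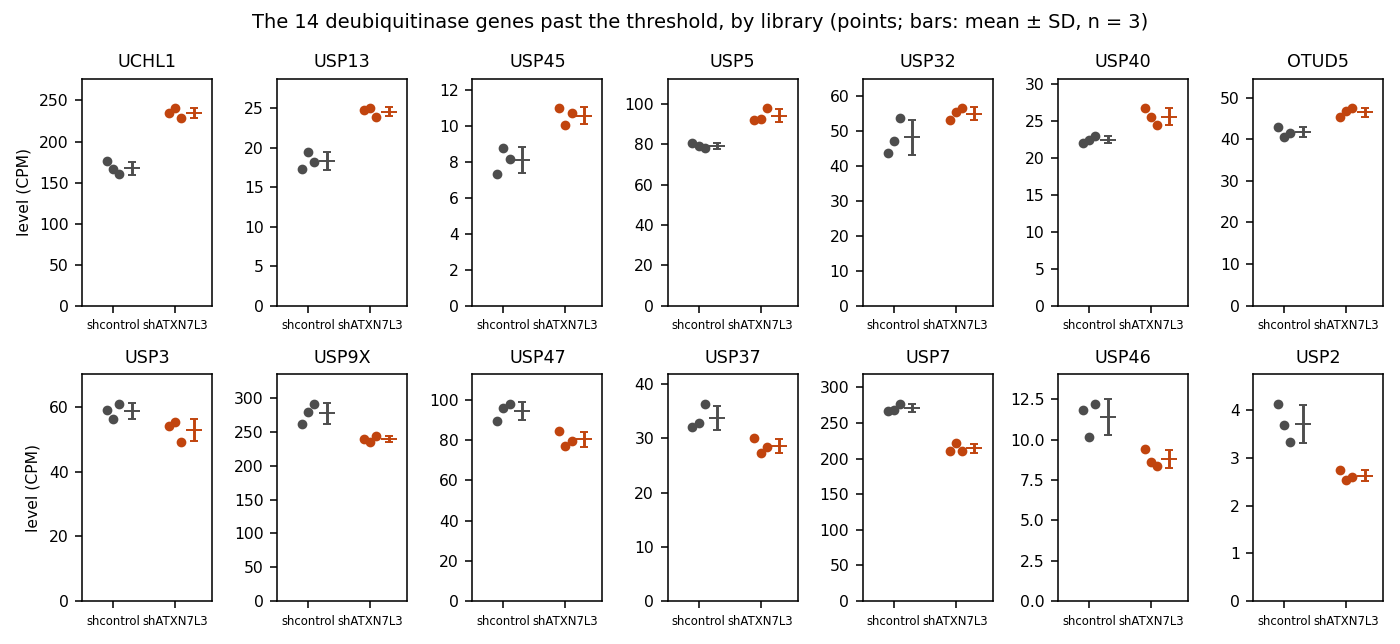
Level in CPM (y axes from 0) of the 14 called members in each library, with mean ± SD (n = 3) beside the points; the top row holds the 7 that rose and the bottom row the 7 that fell. The groups overlap for USP32 and for no other of the 14 genes.

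Among OTU proteases and those of innate immune signalling there was 1 call. Of 10 tested OTU-named members, which include the noncoding OTUD6B-AS1, OTUD5 rose and 0 fell, or 10% called beside 24.2% of all tested genes. Their median log2 fold change was -0.02. OTUD7B and OTUD4, had the highest CPM of 7 tested members tied to NF-kappaB and innate immunity and did not pass. OTUD7B had 143 ± 3.72 and 149 ± 3.07 CPM, and OTUD4 101 ± 7.03 and 102 ± 1.37 CPM (shcontrol and shATXN7L3; mean ± SD, n = 3). In that list edgeR called 0 genes, beside 24.2% of all tested genes. DESeq2 and limma voom also called 0 of the list, and 0 had an unadjusted edgeR p under 0.05. USP18, the protease of the interferon-induced modifier ISG15, was at 0.959 and 0.911 CPM. OTUD6B and its antisense neighbour OTUD6B-AS1, at 59.5 and 58.1 CPM in shcontrol, had log2 fold changes of -0.02 and 0.09.

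USP39, a spliceosome factor without protease activity, did not pass either, nor did USP53 and USP54, which were long classed as inactive and have since been reported as active. The 3 were kept as a list, with 0 of 3 called by edgeR, beside 24.2% of all tested genes. DESeq2 and limma voom also called 0 of the 3, and 0 had an unadjusted edgeR p under 0.05. USP39 had 30.1 ± 0.794 and 28.4 ± 1.18 CPM (mean ± SD, n = 3; log2 fold change -0.08). USP53 had 32.3, 41.5 and 43.5 CPM in shcontrol and 42.5, 38.7 and 40.4 CPM in shATXN7L3. Its sign rested on shcontrol replicate 1, without which its log2 fold change was -0.07 in place of 0.05. The same held for OTUD4, at -0.04 without that library in place of 0.01.

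The 4 members that were not tested had few reads. USP44, a protease of mitosis and histone H2B, had 0, 2 and 0 reads in shcontrol and the same numbers in shATXN7L3. USP41 had 2, 2 and 0 reads in shcontrol and 1, 0 and 2 reads in shATXN7L3. USP17L7, of a multicopy gene family, had 0, 1 and 1 reads in shcontrol and 0 in each shATXN7L3 library. OTUD4P1 had 3, 6 and 10 reads in shcontrol and 14, 10 and 9 reads in shATXN7L3. Differences in these genes were not detectable at this depth.

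In level per kilobase of exon, the members differed widely. Of 63, 16 reached 10 CPM per kb averaged over the 6 libraries, 50 reached 1 and 59 reached 0.1. UCHL1 led, at 73.4 ± 3.51 CPM per kb in shcontrol (SD, n = 3) and 103 ± 2.65 in shATXN7L3. USP7 and USP22 came next in shcontrol, at 34.0 ± 0.686 and 32.0 ± 0.211, and in shATXN7L3 USP7 was at 26.9 ± 0.782 below USP22 at 32.3 ± 0.408. In shcontrol USP5 (21.2 ± 0.383), USP1 (21.0 ± 1.24) and USP9X (19.9 ± 1.10) were neighbours whose means ± SD overlapped. In shATXN7L3, USP5 (25.2 ± 0.823) stood above USP1 (19.9 ± 0.421) and USP1 above USP9X (17.1 ± 0.289). These lengths count all annotated exons of a gene, so genes with many unused exons read low.

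**Figure D4:**
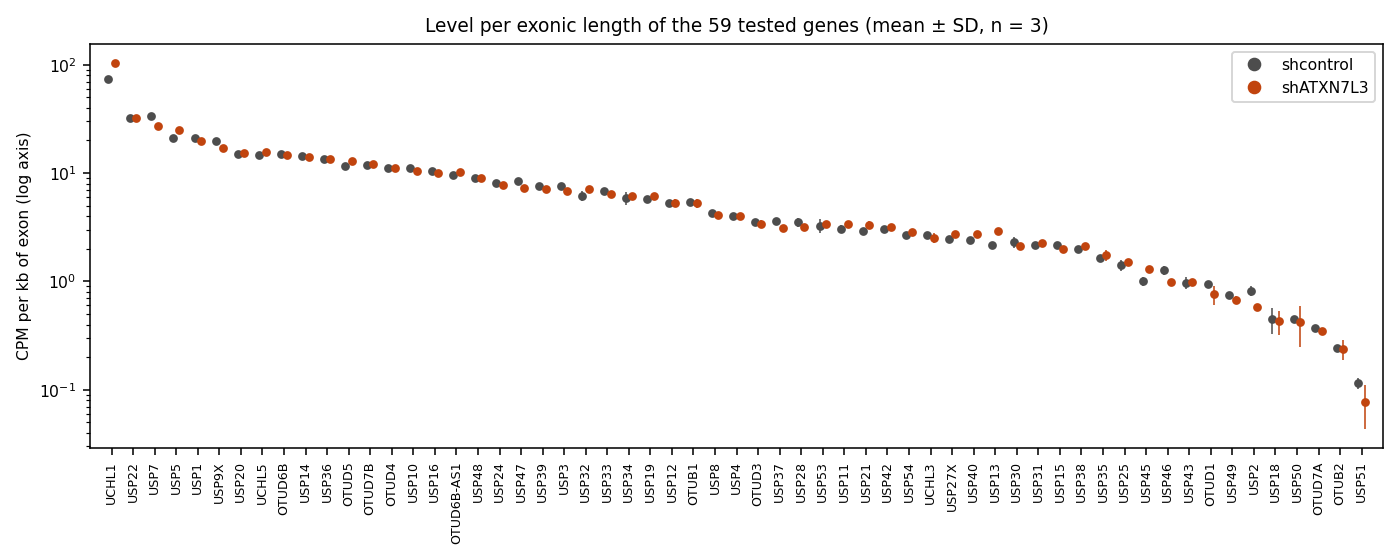
Level in CPM per kilobase of exon (log y axis) of the 59 tested members in both groups, ordered by level, as mean ± SD (n = 3). UCHL1 is highest and USP51 lowest, and USP22 and USP7 lie next to UCHL1.

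The shcontrol libraries spread more than the shATXN7L3 libraries, for members as for other genes. Over the 39 members at 20 CPM or more, the median coefficient of variation was 4.78% in shcontrol and 2.72% in shATXN7L3, beside 4.56% and 3.04% over all 6920 tested genes at that level. Replicate 1 was the lowest shcontrol library in 36 of 59 tested members and replicate 3 the highest in 32. USP34, a large protease of Wnt signalling, shows this, with 91.1, 112 and 119 CPM in shcontrol and 114, 113 and 110 CPM in shATXN7L3. The summed member level was 3091, 3227 and 3254 CPM in shcontrol, a range that includes the 3184, 3181 and 3165 CPM of shATXN7L3. Without shcontrol replicate 1, 5 members were called higher and 9 lower, beside 2224 and 2181 of all tested genes.

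A further list held 25 tested genes outside the name rule, made up of other deubiquitinases and USP-like or related genes. Of these 25, 4 rose and 3 fell, or 28.0%, beside 24.2% of all tested genes and 28.8% of protein-coding ones. STAMBPL1, a metalloprotease of endosomal ubiquitin chains, had 5.47, 4.10 and 3.91 CPM in shcontrol and 9.76, 8.92 and 8.12 CPM in shATXN7L3. Its 1.99-fold rise (log2 0.99 ± 0.12 SE; edgeR adjusted p = 5.38e-06) exceeded that of every member tested. The Josephin proteases JOSD1 and JOSD2 rose too, by 0.37 and 0.50 on the log2 scale (edgeR adjusted p = 5.45e-05 and 0.00631).

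FAM63B and FAM63A, proteases of long ubiquitin chains also called MINDY2 and MINDY1, fell by 0.39 and 0.28 on the log2 scale (edgeR adjusted p = 0.00198 and 0.0102). The FAM63A call ended without shATXN7L3 replicate 3 (0.0756). ZUFSP fell by 0.23 (edgeR adjusted p = 0.0320), a call that ended with DESeq2 (0.138), with no filter (0.0616), with scaling by library size alone (0.0825), and on leaving out any one library (0.0504 to 0.104) except shcontrol replicate 3. The fourth gene that rose was CYLD (0.20; edgeR adjusted p = 0.0352), a protease that restrains NF-kappaB signalling, named here after its value was seen.

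On the substrate side of the pathway, 0 of 5 genes of histone H2B ubiquitination were called by edgeR, beside 24.2% of all tested genes. DESeq2 and limma voom also called 0 of these 5, and 0 had an unadjusted edgeR p under 0.05. Among them were the ligase pair RNF20 and RNF40 at log2 fold changes of 0.03 and -0.07 (edgeR adjusted p = 0.723 and 0.314). UBB, which encodes ubiquitin, had 404 ± 14.6 and 410 ± 17.3 CPM in shcontrol and shATXN7L3 (mean ± SD, n = 3) and did not pass (edgeR adjusted p = 0.798). Of 6 module adaptors, ATXN7L3, the target of the hairpin, was the 1 that passed, or 16.7% called beside 24.2% of all tested genes.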

How the data were processed

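The authors deposited raw counts of reads per gene in 1 table for the 6 libraries, with exon coordinates, strand and exonic length in the file. Per the submitters' processing notes, the tools were Trimmomatic 0.36, STAR 2.5.3a, featureCounts of Subread 1.5.1 and edgeR 3.12.1, on GRCh38. Not given in the sources used here are the annotation release, strand setting and handling of multiply matching reads. Reads of overlapping genes, antisense partners and near-identical copies therefore cannot be told apart: exons of 5 members overlap another gene on the same strand (USP4, USP9X, USP31, OTUB1 and UCHL3) and those of 24 on the opposite strand.

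Genes were kept with filterByExpr (minimum count 10, minimum total 15), scaled by TMM and tested with edgeR 4.0.16 (glmQLFit, glmQLFTest, group as the only term) in R 4.3.3, and p-values were adjusted by Benjamini-Hochberg over every tested gene, with a threshold of 0.05. The SE is the log2 fold change divided by the square root of F, an approximation. Replicate numbers were taken from the titles. Alternatives were DESeq2 1.42.0, limma 3.58.1 (voom), 3 other scalings, 2 other filters, the replicate number as a block and each library left out. The procedure was tested on simulated data whose changed genes differed by 1.5-fold or more. No called member differed by that much, so the simulation does not cover changes of the called members' sizes.

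The members, role lists and tests were chosen with earlier results of these data known. Named are ATXN7L3, ENY2, the 3 SAGA-adaptor proteases, every called member, the 6 highest members per length, and the leading genes of lists without a call or of the other pathway lists. Values of other members, such as USP34, USP18, OTUD6B and the members too low to test, are given outside this rule and were chosen after they were seen. A gene that the rule names is not reported here.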

Additional observations from a re-analysis of the deposited data

How the results depend on the processing

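With DESeq2, 4 members were called higher in place of 7 and 1405 genes in all in place of 2182, and 4 members were called higher at an adjusted p under 0.01. With 1 library left out, 4 to 7 members were called higher and 4 to 9 lower, beside 1543 to 2224 and 1547 to 2257 of all tested genes. The median log2 fold change of USP22, USP27X and USP51 (0.01) became 0.0558 with scaling by library size alone, and that of the other members (-0.02) became 0.0281. With 1 library left out, the first lay between 0.00 and 0.02 and the second between -0.0406 and 0.0174. With 1 library left out, log2 fold changes turned sign for 3 of the genes named by the rule, none of them called: OTUD4 (-0.0417 to 0.0543) and USP53 (-0.0695 to 0.133), both below 0 without shcontrol replicate 1, and UBB (-0.0136 to 0.0462), below 0 without shcontrol replicate 3 or shATXN7L3 replicate 2. The cause was not tested. ATXN7L3 kept its call under all alternatives. The numbers give no pairing: same-numbered libraries had correlations of deviations of -0.04, 0.01 and 0.06. With the replicate number as a block, 7 members were higher and 6 lower, and 2188 and 2140 genes in all. USP51, USP18 and USP50 averaged under 1 CPM in each group, where the depth limits what can be detected.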
